A study of Mus musculus with 6 samples.

Results

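The genes described here make the machinery that copies DNA and the machinery that divides the chromosomes. They were chosen as a list of 58 cell cycle genes of known function, 27 of DNA replication and 31 of mitosis, and were found by symbol among the 27179 gene IDs of the count files, where all 58 were present. RNA-seq counts came from muscle satellite cells of wild-type C57Bl/6N mice, the stem cells of skeletal muscle, in 3 libraries from mice on a high-fat diet and 3 libraries from mice on chow. The design contrasts obese with lean mice. The sources used here give neither the length of the diets nor the ages of the mice. At least 50000 cells were collected by flow cytometry for each replicate, per the labels, which do not state if each replicate was its own animal. The p-values therefore reflect variation among these libraries, part of which may be technical.

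Before a cell copies its DNA, the MCM helicase is loaded onto replication origins with the help of Cdc6 and Cdt1, and cyclin E and E2F transcription factors drive the entry into S phase. Mitosis follows under cyclin A, cyclin B and Cdk1, with the Aurora and Plk1 kinases, the kinetochore, the spindle and the cytokinesis apparatus acting in turn, and most of these transcripts are made only in cycling cells. Satellite cells of adult muscle at rest are largely quiescent, and they enter the cell cycle after injury.

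Promoters of many cell cycle genes carry elements through which the timing of their transcription is known to be set. E2F factors bind sites in replication promoters, and the DREAM and MuvB complexes bind the cell cycle homology region (CHR) of mitosis promoters, often near boxes bound by NF-Y. Promoters of a pair of helicase genes and a pair of mitosis genes are shown because their levels recur below and because they hold such elements. The sequences are from RefSeq (GRCm38.p6) and give the 250 bases before the start position used for each promoter, 5′ to 3′ on the gene's strand. For Mcm5, Mki67 and Top2a that position lies inside the annotated bounds of the gene, so the last bases of the stretch are within the gene. Capitals mark matches, on either strand, to E2F sites (TTTGGCGC, TTTCCCGC, TTTGCCGC or TTTCGCGC), to the CHR (TTTGAA or TTCGAA) and to the NF-Y box (CCAAT). Where matches overlap, they form a single run of capitals. The stretch shown for Mcm5 lies at chr8:75109259-75109508 on the plus strand, that for Mcm6 at chr1:128359706-128359955 on the minus strand, that for Mki67 at chr7:135716380-135716629 on the minus strand and that for Top2a at chr11:99024190-99024439 on the minus strand.
Mcm5: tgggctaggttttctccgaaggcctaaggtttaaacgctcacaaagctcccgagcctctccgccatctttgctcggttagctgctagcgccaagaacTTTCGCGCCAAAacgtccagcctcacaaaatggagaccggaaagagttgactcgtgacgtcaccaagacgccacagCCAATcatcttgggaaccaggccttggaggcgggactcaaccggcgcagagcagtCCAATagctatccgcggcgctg
Mcm6: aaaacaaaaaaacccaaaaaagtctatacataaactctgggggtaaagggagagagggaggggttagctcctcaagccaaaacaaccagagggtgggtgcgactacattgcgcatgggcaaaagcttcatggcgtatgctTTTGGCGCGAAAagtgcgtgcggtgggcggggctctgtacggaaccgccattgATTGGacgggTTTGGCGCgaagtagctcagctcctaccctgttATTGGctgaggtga
Mki67: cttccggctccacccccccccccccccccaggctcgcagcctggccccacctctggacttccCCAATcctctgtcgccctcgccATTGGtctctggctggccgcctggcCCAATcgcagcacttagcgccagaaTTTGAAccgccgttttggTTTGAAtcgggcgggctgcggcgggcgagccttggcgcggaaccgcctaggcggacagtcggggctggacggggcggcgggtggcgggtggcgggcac
Top2a: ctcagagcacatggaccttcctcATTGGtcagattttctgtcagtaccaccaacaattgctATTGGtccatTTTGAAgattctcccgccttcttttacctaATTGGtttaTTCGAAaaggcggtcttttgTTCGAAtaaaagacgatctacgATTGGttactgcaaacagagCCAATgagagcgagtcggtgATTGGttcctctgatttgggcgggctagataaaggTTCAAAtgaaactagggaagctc

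Both helicase promoters held E2F matches and no CHR match, and both mitosis promoters held CHR and NF-Y matches and no E2F match. The 4 promoters were picked for these matches, and other genes of the list differ: Mcm2 and Cdc45 held a CHR match and no E2F match, and 1 window of Mcm7 held both. Windows that also include the 50 bases after the start position used were available for 23 replication genes (26 windows) and 27 mitosis genes (28 windows). An E2F match stood in 9 of the 26 replication windows (34.6%) and in 1 of the 28 mitosis windows (3.6%), that of Cdk1, against 2.8% of 22271 windows of 18458 genes. The replication genes with an E2F match were Cdc6, Cdt1, Hells, Mcm3, Mcm5, Mcm6, Mcm7, Pola1 and Uhrf1. A CHR match stood in 4 of the 26 replication windows (15.4%) and in 23 of the 28 mitosis windows (82.1%), against 17.3% of all windows. The NF-Y box stood in 61.5% of replication windows and 78.6% of mitosis windows, against 38.3% of all. CHR and NF-Y matches stood together in 11.5% of replication windows and 71.4% of mitosis windows, against 7.1% of all. A match is a description of the letters in a window and not a measured binding site. A window without a match to these exact letters may still hold a site. Mcm4, Gins2, Ccne2, Tipin, Ccna2, Aurkb, Tpx2 and Kif20a had no window in the table.

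**Figure D1:**
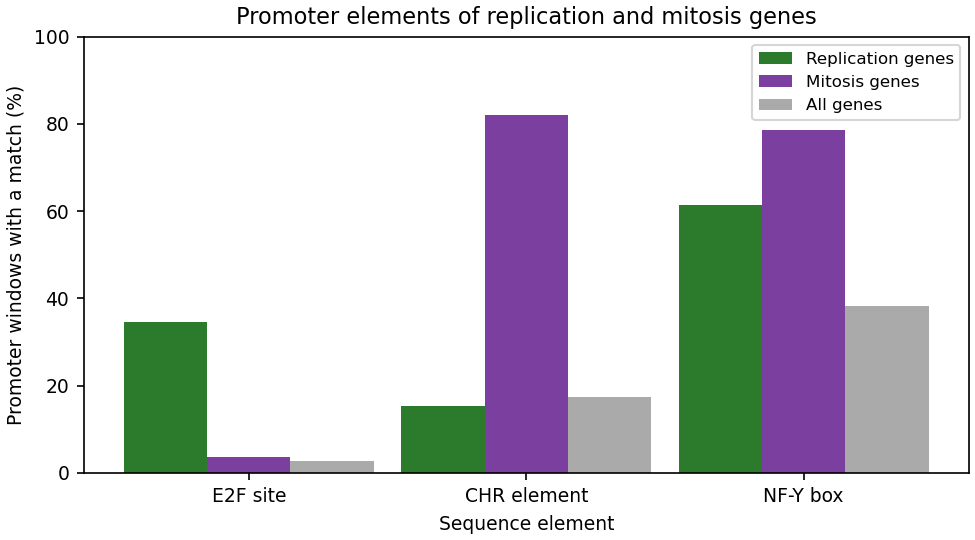
The bars give the percentage of promoter windows that hold at least 1 match to an E2F site, a CHR or an NF-Y box, for replication genes (26 windows), mitosis genes (28 windows) and all genes (22271 windows). E2F matches were most frequent in replication windows (34.6%) and CHR matches in mitosis windows (82.1%).

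Total counts lay between 14930394 and 18217818 in high-fat diet libraries and between 15977166 and 17690342 in chow libraries. Levels are given as CPM, counts scaled to a library of standard size, after TMM scaling of library sizes, and a count of 0 allows a level of up to 3 counts, or 0.165 to 0.201 CPM, counting error only. High-fat diet library 1 and chow library 3 stood apart from the other libraries in a principal component analysis of the 500 genes of highest variance, scoring 43.1 and -60.8 on a first component that held 29.4% of the variance. The other 4 libraries scored between -6.64 and 12.3. All 10 satellite cell markers, Pax7 among them, were detected, and their summed level was 4152 to 5275 CPM with the high-fat diet and 4420 to 5317 CPM with chow. Summed markers of other cells reached 770 to 1058 CPM with the high-fat diet and 663 to 878 CPM with chow for fibro-adipogenic cells, 537 to 782 CPM with the high-fat diet and 695 to 807 CPM with chow for mural cells, 229 to 384 CPM with the high-fat diet and 260 to 338 CPM with chow for endothelial cells, and 8.09 to 31.2 CPM with the high-fat diet and 21.6 to 50.6 CPM with chow for immune cells. Single genes held much of each of these sums. Over the libraries, Notch3 held 77.2% to 87.3% of the mural sum and Tek 40.5% to 79.7% of the endothelial sum. Cd68 held 41.8% to 78% of the immune sum and Sdc4 34.8% to 48.3% of the satellite cell sum. Gsn, or Dpt in high-fat diet library 2, held 37.7% to 49.8% of the fibro-adipogenic sum. The diets overlapped in every marker sum given here, and among the satellite cell markers the log2 fold change was positive for 6 and negative for 4. At an unadjusted edgeR p under 0.05, 2 of the 10 lay higher in the high-fat diet libraries and 2 lay lower. Of all genes tested, 7.65% passed this level in either direction. The diets did not overlap for 2 of the markers that were higher and 1 that was lower, against 15.3% of all genes. Once adjusted, 0 of the 10 passed by edgeR. By DESeq2 and by limma-voom 1 passed, Pax7, with a log2 fold change of -0.78 and an adjusted p of 0.180 by edgeR, 0.0123 by DESeq2 and 0.0281 by limma-voom. The part of these cells in the levels below was not tested, and in bulk RNA fewer cycling cells and less RNA per cycling cell cannot be told apart.

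Replication transcripts were found in every library, and mitosis transcripts lay lower, with a mean under 1 CPM for 12 of the 31 mitosis genes and 5 of the 27 replication genes. Summed over all 27 genes, replication transcripts reached 376.9, 325.5 and 335.2 CPM with the high-fat diet (libraries 1, 2 and 3) and 366.7, 316.3 and 449.5 CPM with chow (libraries 1, 2 and 3). The 31 mitosis genes together reached 117.1, 62.4 and 62.8 CPM in the high-fat diet libraries, and 49.4, 68.1 and 81.0 CPM in the chow libraries. The diets overlapped in both sums. Mitosis transcripts thus amounted to 31.1%, 19.2% and 18.7% of replication transcripts with the high-fat diet, and to 13.5%, 21.5% and 18.0% with chow. The highest mitosis sum, in high-fat diet library 1, and the highest replication sum, in chow library 3, fell in the libraries that stood apart. Per length, the median gene of the replication list had 1.18 RPKM (CPM per kilobase of exon) over the 6 libraries, and the median gene of the mitosis list 0.284 RPKM.

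**Figure D2:**
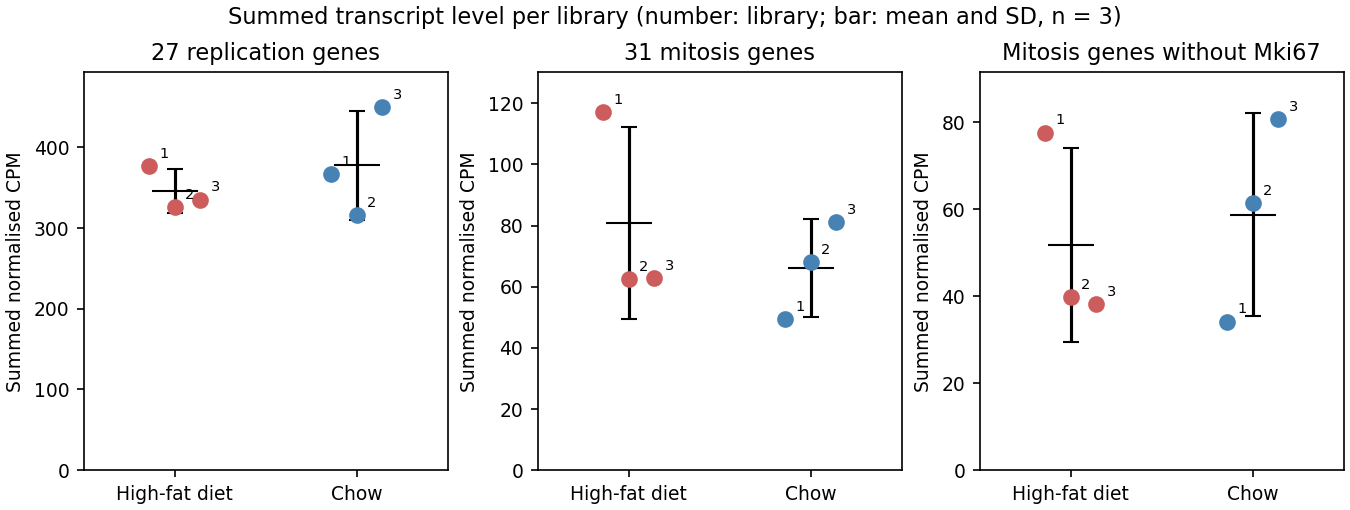
Points are the summed normalised CPM of each library (numbered 1 to 3), with the high-fat diet left and chow right, and bars give mean and SD (n = 3). The diets overlap in the replication sum (325.5 to 376.9 CPM with the high-fat diet, 316.3 to 449.5 CPM with chow), the mitosis sum (62.4 to 117.1 CPM with the high-fat diet, 49.4 to 81.0 CPM with chow) and the mitosis sum without Mki67 (38.2 to 77.7 CPM with the high-fat diet, 34.2 to 80.7 CPM with chow).

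None of these genes passed the test between the diets. Of the 58, 39 had counts high enough to be tested (22 replication, 17 mitosis), and 0 of 39 were called by edgeR's quasi-likelihood test at a Benjamini-Hochberg adjusted p under 0.05, against 34 of 13202 genes (0.258%). By DESeq2, limma-voom and edgeR with no filter on low counts, where all 58 were tested, the count was also 0. At an unadjusted p under 0.05 there was 1 gene, Mki67, or 2.56% of the 39 against 7.65% of all genes tested. The diets did not overlap for 3 of the 39 (Rrm1, Mki67 and Mcm5), 7.69% against 15.3% of all genes. All 3 were higher with the high-fat diet, against 7.42% of all genes in that direction, and 0 were lower, against 7.87%. The lowest adjusted p of the edgeR test was 0.631, for Mki67, and the next 0.813, for Birc5. The fitted log2 fold change, high-fat diet over chow, was positive for 18 genes and negative for 21, with a median of -0.27 beside -0.01 over all genes tested. Among the replication genes it was positive for 11 and negative for 11 (median 0.09). Among the mitosis genes it was positive for 7 and negative for 10 (median -0.47), and this median took values between -0.54 and 0.17 when single libraries were left out.

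**Figure D3:**
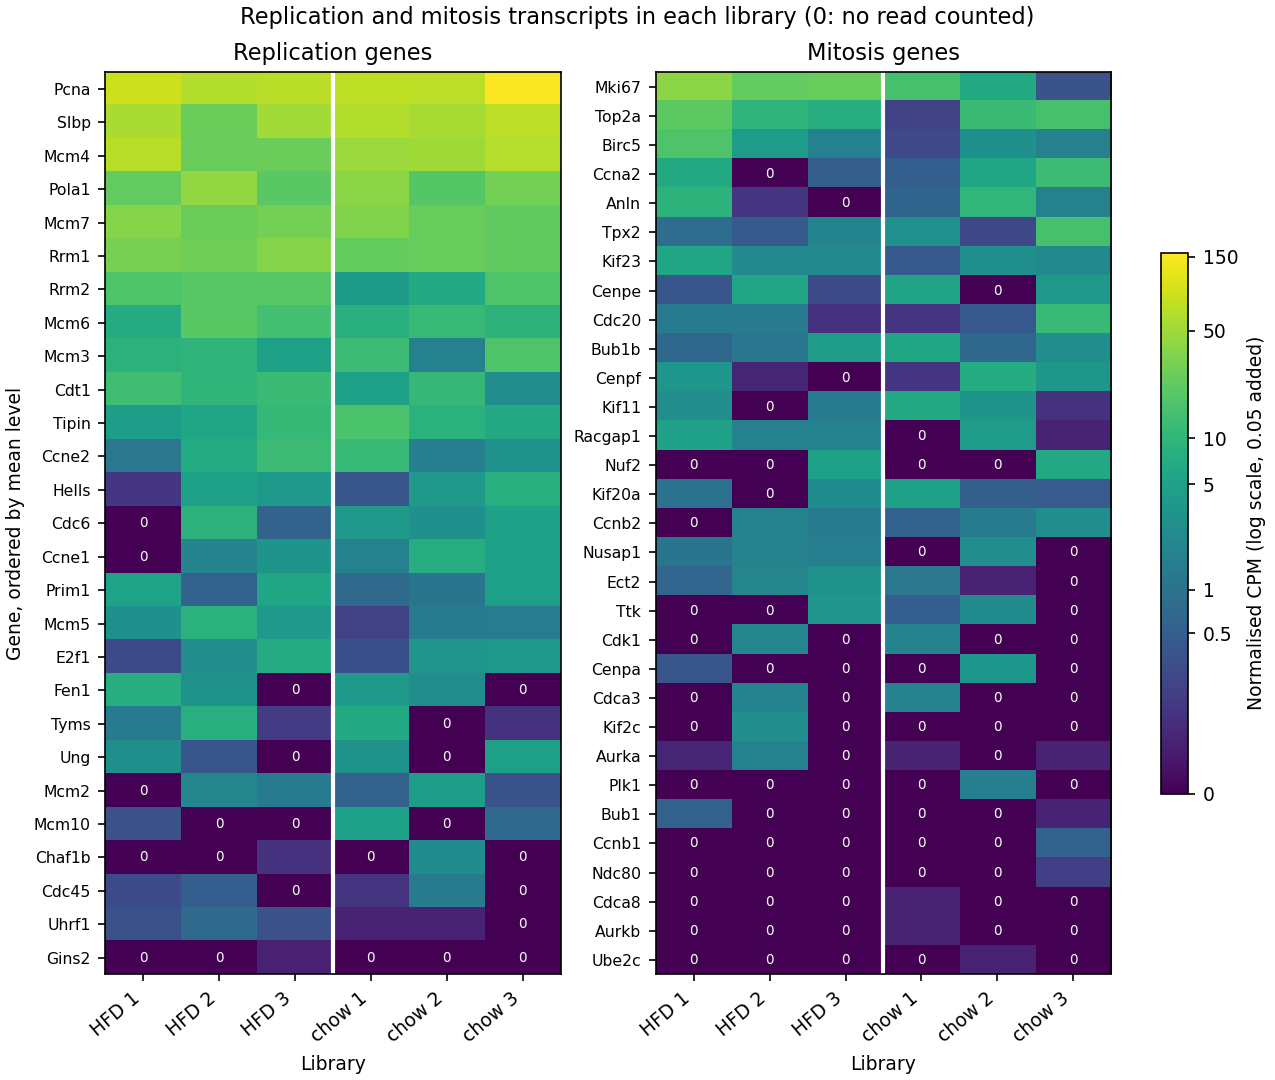
Each row is a gene, ordered by its mean level, each column a library, with the high-fat diet left of the white line and chow right, and the colour gives normalised CPM on a log scale with 0.05 added. Cells marked 0 had no read. Of the replication genes, 16 had counts in all 6 libraries, and of the mitosis genes 7.

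The precision of these comparisons followed the level. For the 6 tested genes over 20 CPM the standard error of the log2 fold change was 0.30 to 0.44, and for the 25 under 5 CPM it was 1.41 to 2.29. The 19 genes that were not tested had a mean of at most 1.89 CPM. They were Mcm10, Gins2, Cdc45, Chaf1b and Uhrf1 of the replication list, and Ccnb1, Cdk1, Plk1, Aurka, Aurkb, Bub1, Cenpa, Ube2c, Kif2c, Ttk, Nuf2, Ndc80, Cdca3 and Cdca8 of the mitosis list.

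Among the helicase genes, the subunits of the MCM ring differed widely in transcript level. The ring contains Mcm2 to Mcm7 in equal number. Per length, Mcm4 averaged 13.1 RPKM over the 6 libraries, Mcm7 6.52, Mcm6 2.52, Mcm3 2.43, Mcm5 0.759 and Mcm2 0.209 RPKM. In these averages the Mcm4 level was 62.4 times that of Mcm2. The ratio depends on the merged exon lengths, 3589 bases for Mcm4 and 6956 for Mcm2. It also rests on uneven Mcm2 counts, with 51.4% of the Mcm2 level in chow library 2 and 0 counts in high-fat diet library 1. Mcm4 had 68.1, 25.3 and 25.8 CPM with the high-fat diet, libraries 1 to 3 in turn, and 46.9, 50.8 and 64.4 CPM with chow. High-fat diet library 1 was the highest of the 6 and the other high-fat diet libraries the lowest, and the diets overlapped (mean 39.7 ± 24.6 CPM on the high-fat diet, 54.0 ± 9.17 CPM on chow, SD, n = 3 each; log2 fold change -0.44, SE 0.40, edgeR adjusted p = 0.937). Mcm7 had 37.5, 25.7 and 29.2 CPM with the high-fat diet and 34.5, 24.3 and 21.9 CPM with chow, with overlap. Of the exon positions of Mcm7, 12.6% are shared with other genes, among them Mir25 and Mir93 on the same strand. Mcm6, whose promoter is shown above, had 7.22, 20.2 and 14.4 CPM with the high-fat diet and 8.41, 11.4 and 9.07 CPM with chow, with overlap.

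Mcm5, the other helicase gene shown, was low in every library but did not overlap between the diets. It had 2.80, 8.70 and 3.78 CPM with the high-fat diet and 0.188, 1.28 and 1.44 CPM with chow, from 43, 136 and 70 counts with the high-fat diet and 3, 22 and 25 with chow. The difference did not pass the test (mean 5.09 ± 3.16 CPM on the high-fat diet, 0.969 ± 0.680 CPM on chow, SD, n = 3 each; log2 fold change 2.38, SE 1.58, edgeR adjusted p = 0.857). Mcm2 had 0, 31 and 25 counts in the high-fat diet libraries and 9, 77 and 6 in the chow libraries. Of the loading factors, Cdt1 had 13.5, 9.72 and 12.0 CPM with the high-fat diet and 4.84, 10.8 and 2.58 CPM with chow, with overlap. Cdc6 had 0, 141 and 11 counts with the high-fat diet and 60, 48 and 87 counts with chow, its highest and lowest values both being high-fat diet libraries. The factors that turn the loaded ring into an active helicase each had a mean under 1 CPM. Cdc45 had 4, 8 and 0 counts with the high-fat diet and 2, 22 and 0 with chow. Mcm10 had 5, 0 and 0 with the high-fat diet and 77, 0 and 13 with chow. Gins2 had 1 count in all, in high-fat diet library 3. Of its exon positions, 67.3% are shared with a gene on the opposite strand, so its count is uncertain.

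Genes of DNA synthesis included the most abundant of the list. Pcna, the sliding clamp that holds polymerases on DNA, had 86.2, 63.0 and 69.6 CPM with the high-fat diet and 74.8, 71.1 and 150.9 CPM with chow, and held 23.8% of the summed replication level. Chow library 3, a library that stood apart, was the highest and the other 5 lay within 63.0 to 86.2 CPM, so that the diets overlapped (mean 72.9 ± 12.0 CPM on the high-fat diet, 98.9 ± 45.0 CPM on chow, SD, n = 3 each; log2 fold change -0.44, SE 0.30, edgeR adjusted p = 0.873). Over the alternatives the log2 fold change of Pcna lay between -0.63 and 0.00068. Named pseudogenes of Pcna exist, and the sources used here do not say how reads of near-identical copies were counted. Pola1, the catalytic subunit of the polymerase that starts each new strand, had 23.0, 43.7 and 20.3 CPM with the high-fat diet and 39.2, 19.2 and 29.1 CPM with chow, and its means were nearly equal (mean 29.0 ± 12.8 CPM on the high-fat diet, 29.2 ± 9.97 CPM on chow, SD, n = 3 each). Tipin, a fork protection factor, had 70, 92 and 206 counts with the high-fat diet and 255, 149 and 113 with chow, with overlap. Prim1, the primase, lay between 0.576 and 5.77 CPM with the high-fat diet and between 0.754 and 4.71 CPM with chow. Fen1, the flap endonuclease, had 0 counts in library 3 of both diets, and 84.2% of its exon positions are shared with genes on the opposite strand, so its counts are uncertain.

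The regulators of S phase entry were uneven within each diet. Cyclin E2 (Ccne2) had 1.17, 7.23 and 12.7 CPM with the high-fat diet and 11.9, 1.52 and 2.99 CPM with chow. Cyclin E1 (Ccne1) had 0, 1.79 and 3.24 CPM with the high-fat diet and 1.70, 7.70 and 4.77 CPM with chow. E2f1, a transcriptional activator of S phase genes, had 0.260, 2.62 and 7.23 CPM with the high-fat diet and 0.314, 3.26 and 3.62 CPM with chow. In all 3 genes the diets overlapped, and in E2f1 library 1 was the lowest of each diet.

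Nucleotide supply was the replication role in which every high-fat diet library lay above every chow library in sum. Rrm1 encodes the large and Rrm2 the small subunit of ribonucleotide reductase, which makes deoxynucleotides. Rrm1 had 30.2, 27.4 and 37.2 CPM with the high-fat diet and 24.0, 24.2 and 22.3 CPM with chow, so that every high-fat diet library was above every chow library. The difference did not pass the test (mean 31.6 ± 5.06 CPM on the high-fat diet, 23.5 ± 1.02 CPM on chow, SD, n = 3 each; log2 fold change 0.43, SE 0.39, edgeR adjusted p = 0.937). Rrm2 had 269, 307 and 364 counts with the high-fat diet and 64, 120 and 305 counts with chow, and after scaling its lowest high-fat diet library (17.49 CPM) and its highest chow library (17.51 CPM) met. The high-fat diet libraries spread far less than the chow libraries (mean 18.9 ± 1.24 CPM on the high-fat diet, 9.51 ± 7.09 CPM on chow, SD, n = 3 each; log2 fold change 0.99, SE 0.66, edgeR adjusted p = 0.858). Tyms, the thymidylate synthase, had 20, 121 and 3 counts with the high-fat diet and 109, 0 and 2 with chow. Ung, which removes uracil from DNA, lay between 0 and 2.73 CPM with the high-fat diet and between 0 and 4.94 CPM with chow. The summed level of these 4 genes was 51.8 to 57.0 CPM with the high-fat diet and 31.2 to 44.9 CPM with chow and did not overlap, a description for which no test was made.

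Chromatin and histone supply lay in the other direction, with 31.9 to 58.7 CPM summed over its 4 genes with the high-fat diet and 61.2 to 79.1 CPM with chow, again with no test made; most of this level was Slbp. Slbp, which binds the stem-loop of replication-dependent histone mRNAs, had 58.2, 26.1 and 52.0 CPM with the high-fat diet and 63.4, 54.8 and 71.0 CPM with chow. The diets overlapped by the margin between high-fat diet library 1 and chow library 2 (mean 45.4 ± 17.0 CPM on the high-fat diet, 63.0 ± 8.09 CPM on chow, SD, n = 3 each; log2 fold change -0.47, SE 0.33, edgeR adjusted p = 0.876). Hells, a chromatin remodeller, had 0.130, 4.99 and 3.83 CPM with the high-fat diet and 0.377, 3.85 and 8.15 CPM with chow, library 1 being the lowest of each diet. Chaf1b, of the chromatin assembly factor, had 2 counts in high-fat diet library 3, 42 counts in chow library 2 and 0 in the others. Uhrf1, which couples DNA methylation to replication, had 5, 12 and 6 counts with the high-fat diet and 1, 1 and 0 with chow, without overlap but too few to be tested.

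Mki67 was the gene of the list with the smallest p. It lies at chr7:135689784-135716450 (GRCm38.p6), encodes a protein that coats mitotic chromosomes and is widely used as a marker of cycling cells. It had 39.4, 22.6 and 24.6 CPM with the high-fat diet and 15.2, 6.70 and 0.344 CPM with chow, from 606, 354 and 456 counts with the high-fat diet and 242, 115 and 6 with chow. Every high-fat diet library was above every chow library, and the chow libraries spread over a range that began at 6 counts. The fitted difference of 3.90-fold had an unadjusted p of 0.0423 and did not pass once adjusted over all genes (mean 28.9 ± 9.17 CPM on the high-fat diet, 7.41 ± 7.45 CPM on chow, SD, n = 3 each; log2 fold change 1.96, SE 0.88, edgeR adjusted p = 0.631). Without chow library 3 the log2 fold change was 1.40, without chow library 1 it was 3.04, and without both libraries that stood apart 1.12, and the adjusted p was between 0.120 and 0.870 over all alternatives. Top2a, the topoisomerase that untangles sister chromosomes and the other mitosis gene whose promoter is shown, did not follow Mki67. It had 20.9, 9.53 and 7.60 CPM with the high-fat diet and 0.188, 12.1 and 15.2 CPM with chow, and the chow library with the highest Mki67 level, library 1, had 3 counts of Top2a. The chow library with 6 counts of Mki67, library 3, had 265 counts of Top2a. The diets overlapped in Top2a (log2 fold change 0.47, SE 1.04, edgeR adjusted p = 0.999). Mki67 and Top2a together held 39.6% of the summed mitosis level. Their sum was 32.2 to 60.4 CPM with the high-fat diet and 15.4 to 18.8 CPM with chow. It did not overlap, with no test made, and it includes Mki67, which did not overlap by itself.

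**Figure D4:**
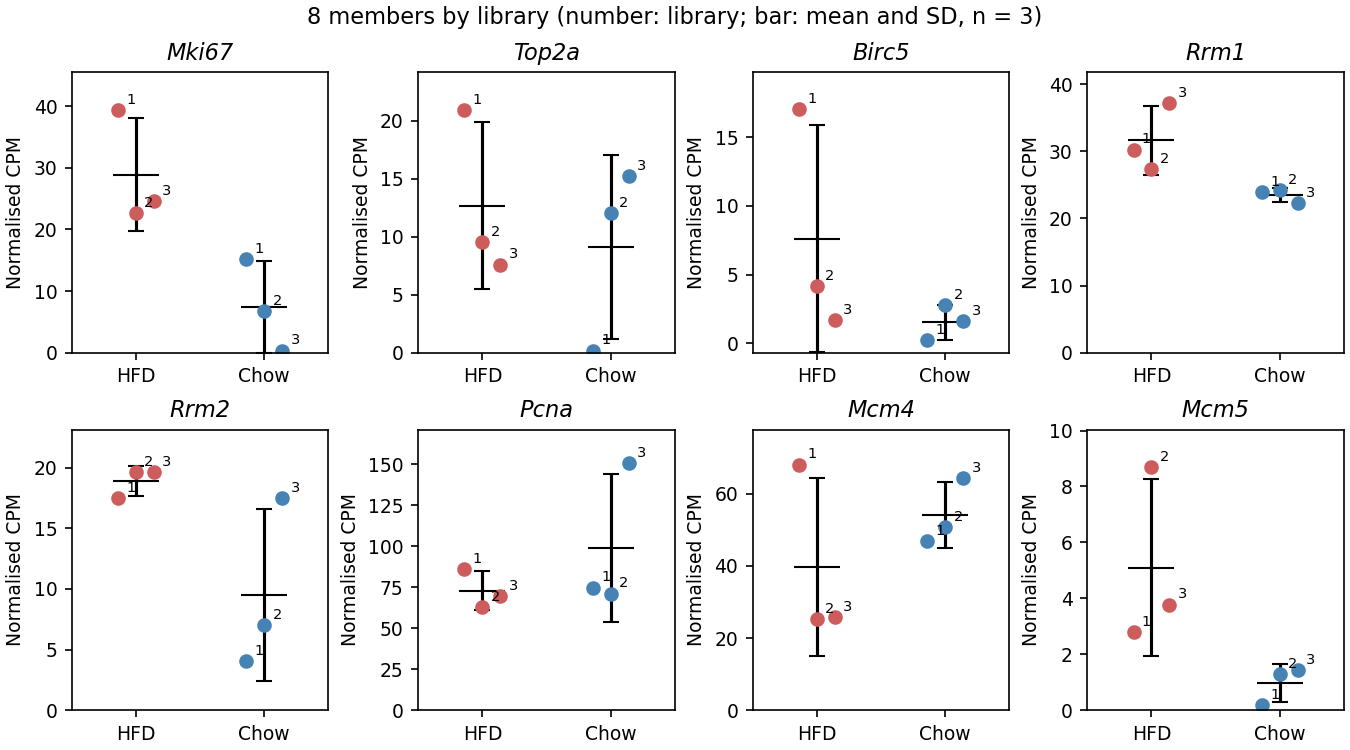
Points are the normalised CPM of each library (numbered 1 to 3), with the high-fat diet (HFD) left and chow right, and bars give mean and SD (n = 3), one panel per gene with its own axis. Mki67, Rrm1 and Mcm5 do not overlap between the diets, and in chow the order of libraries is reversed between Mki67 and Top2a.

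Of the 9 mitotic cyclins, kinases and their partners, 3 had counts high enough to be tested, and 0 passed. Birc5, the survivin subunit of the Aurora B complex, had 17.0, 4.16 and 1.67 CPM with the high-fat diet and 0.251, 2.80 and 1.61 CPM with chow. High-fat diet library 1, which stood apart, held 61.9% of its summed level, and the diets overlapped (log2 fold change 2.29, SE 1.41, edgeR adjusted p = 0.813). Cyclin A2 (Ccna2) had 6.70, 0 and 0.486 CPM with the high-fat diet and 0.502, 5.77 and 12.6 CPM with chow. Cyclin B2 (Ccnb2) had 0, 1.79 and 1.40 CPM with the high-fat diet and 0.565, 1.34 and 2.53 CPM with chow. Cdk1, the kinase these cyclins activate, had 31 counts in high-fat diet library 2, 29 in chow library 1 and 0 in the other 4. Aurka, the spindle pole Aurora kinase, had 26 counts in high-fat diet library 2 and at most 1 elsewhere. Ccnb1, Plk1, Aurkb and Cdca8, with Ube2c and Ndc80 of the roles below, each had counts in 1 chow library only. These were 27 counts of Plk1 in library 2, 10 of Ccnb1 and 3 of Ndc80 in library 3, and 1 count for each of the others. The genes were grouped by this pattern, so it is no comparison of the diets. In the other direction, Kif2c had 40 counts in high-fat diet library 2 alone and Gins2 1 count in high-fat diet library 3 alone.

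Of the 6 spindle checkpoint genes and the 6 kinetochore genes, 2 of each were tested, and 0 passed. Cdc20, the activator of the anaphase-promoting complex, had 1.30, 1.34 and 0.108 CPM with the high-fat diet and 0.126, 0.408 and 11.9 CPM with chow, and chow library 3 held 78.4% of its summed level. Bub1b, a checkpoint kinase-like protein, had 0.715, 1.15 and 4.15 CPM with the high-fat diet and 5.78, 0.700 and 2.58 CPM with chow, and was the single mitosis gene with at least 10 counts in all 6 libraries. Ttk, the checkpoint kinase also called Mps1 after its yeast counterpart, had 0, 0 and 62 counts with the high-fat diet and 8, 41 and 0 with chow, and Bub1 had 9 counts in high-fat diet library 1, 1 in chow library 3 and 0 elsewhere. Cdca3 had 28 counts in high-fat diet library 2, 28 in chow library 1 and 0 in the others. At the kinetochore, the motor Cenpe had 6, 89 and 5 counts with the high-fat diet and 88, 0 and 67 with chow, and Cenpf had 52, 1 and 0 with the high-fat diet and 2, 127 and 61 with chow. Nuf2, of the complex that binds microtubules, had 91 counts in high-fat diet library 3, 112 in chow library 3 and 0 in the other 4, whereas Ndc80, its partner in that complex, had 3 counts in chow library 3 and 0 elsewhere. Cenpa, the centromeric histone, had 6 counts in high-fat diet library 1, 58 in chow library 2 and 0 elsewhere, and Kif2c, a microtubule depolymerase, had 40 counts in high-fat diet library 2 alone.

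All 3 spindle genes and all 5 cytokinesis genes were tested, 0 passed, and each overlapped between the diets. Tpx2, a spindle assembly factor, had 0.846, 0.448 and 1.83 CPM with the high-fat diet and 2.89, 0.233 and 15.1 CPM with chow, and 70.7% of its summed level was in chow library 3. It overlapped between the diets (log2 fold change -2.53, SE 1.66, edgeR adjusted p = 0.850). Kif11, the motor that separates the spindle poles, had 2.54, 0 and 1.40 CPM with the high-fat diet and 6.66, 3.21 and 0.115 CPM with chow, and Nusap1, a microtubule-bundling protein, had 17, 27 and 28 counts with the high-fat diet and 0, 44 and 0 with chow. Summed, these 3 genes had 2.17 to 4.75 CPM with the high-fat diet and 6.01 to 15.2 CPM with chow, without overlap and with no test made. The genes did not all lie one way, since Nusap1 averaged 1.45 CPM in the high-fat diet libraries, against 0.855 CPM in the chow libraries, and nearly all of the highest chow sum, in library 3, was Tpx2. Anln, the actin-binding anillin of the cleavage furrow, had 139, 2 and 0 counts with the high-fat diet and 10, 171 and 29 with chow. The central spindle motor Kif23 had 5.92, 2.17 and 2.32 CPM with the high-fat diet and 0.439, 2.74 and 2.24 CPM with chow, and its partner Racgap1 had 78, 26 and 31 counts with the high-fat diet and 0, 72 and 1 with chow. Both had their highest value in high-fat diet library 1, their next in chow library 2 and their lowest in chow library 1. Ect2, which activates the contractile ring, had 10, 30 and 56 counts with the high-fat diet and 19, 1 and 0 with chow, and Kif20a 15, 0 and 46 with the high-fat diet and 80, 9 and 8 with chow.

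Many of these transcripts were spread unevenly over the libraries, as low genes of any kind were. The fitted dispersion, the variation between libraries beyond counting error, lay above the trend for genes of the same level in 16 of the 39 tested (41.0%), against 36.5% of all genes tested. A count of 0 in at least 1 library was found for 35 of the 58 genes, and for 16 of the 39 tested (41.0%) against 18.7% of all genes tested. The highest library held a median of 31.8% of the 6-library sum for the 22 tested replication genes and 44.2% for the 17 tested mitosis genes, against 28.2% over all genes tested, a comparison that does not match levels, and 16.7% for an even spread. With the genes that were not tested included, the medians were 38.2% for replication and 53.1% for mitosis. Counts of 100 or more in 1 library and under 3 in another were found for 5 replication and 6 mitosis genes. The libraries with the highest value were not those of 1 diet: the 3 high-fat diet libraries were the highest for 10, 12 and 7 of the 58 genes, and the 3 chow libraries for 7, 10 and 12. In each library between 22 and 25 of the 27 replication genes and between 17 and 21 of the 31 mitosis genes had at least 1 count. The 8 replication genes with a mean over 10 CPM held 82.5% of the replication sum.

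**Figure D5:**
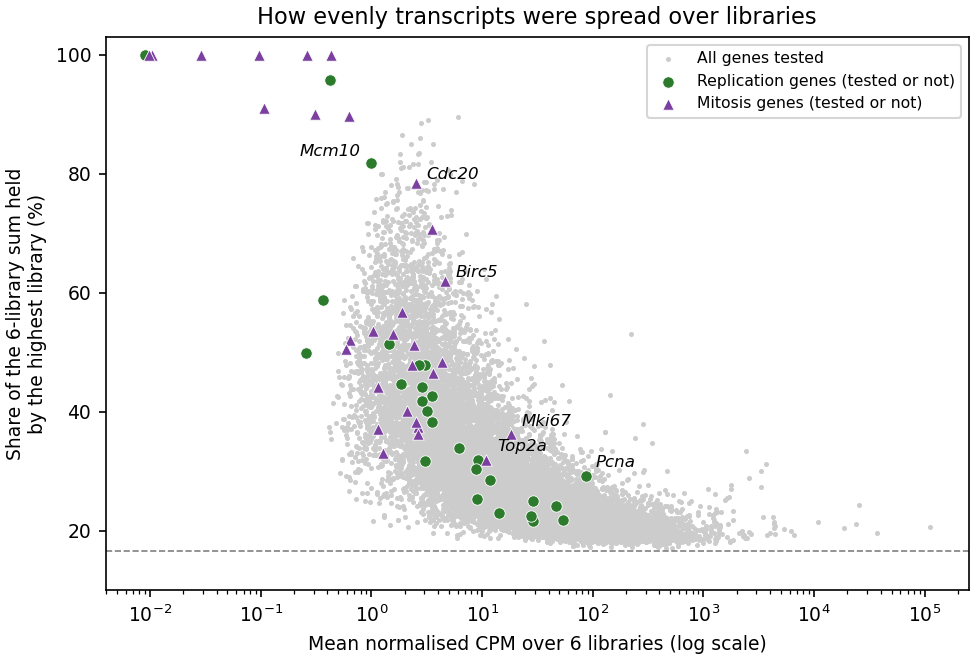
Each point is a gene, with its mean normalised CPM over 6 libraries on a log axis and the percentage of its 6-library sum found in its highest library. The dashed line is an even spread (16.7%). Grey points are the 13202 genes tested, circles the replication genes and triangles the mitosis genes, both with the 19 genes that were not tested. The share of the highest library is larger at low levels in members and grey points alike.

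The rest of the pathway was read from further lists of known genes. Of 53 other replication genes, 40 were tested, 0 passed edgeR's test (0.258% of all genes did), and the median log2 fold change was 0.12, positive for 24 and negative for 16. At an unadjusted p under 0.05, a level that 7.65% of all genes tested passed, there was 1 gene, Rfc5. Rfc5, a subunit of the clamp loader that opens Pcna, had 6.44, 11.6 and 12.2 CPM with the high-fat diet and 28.0, 21.5 and 33.3 CPM with chow. All high-fat diet libraries were below all chow libraries, and the edgeR adjusted p was 0.439 (log2 fold change -1.45, SE 0.52). The diets did not overlap in 2 of the other replication genes that were higher and 3 that were lower, against 15.3% of all genes tested. Of 66 other mitosis genes, 37 were tested, 0 passed and 0 had an unadjusted p under 0.05, and the median was 0.37, positive for 25 and negative for 12. Arhgap11a had the smallest p of these (edgeR adjusted p = 0.678). It had 4.23, 1.09 and 1.46 CPM with the high-fat diet and 0, 0.175 and 0 CPM with chow. Cks2, a small subunit of the Cdk complexes, had 23.2, 12.0 and 11.5 CPM with the high-fat diet and 2.07, 7.29 and 6.49 CPM with chow. Smc4, a core subunit of condensin, was the most abundant of those with the smallest p, at 97.8, 113.1 and 104.2 CPM with the high-fat diet and 86.0, 71.1 and 74.3 CPM with chow. None of these overlapped between the diets, and Cks2 and Smc4 both had an edgeR adjusted p of 0.695. The diets did not overlap in 5 genes of this list that were higher and 2 that were lower, against 15.3% of all genes tested. The regulators that read the promoter elements are the E2F, pocket protein and DREAM genes. Here 16 of 17 were tested, 0 passed and 0 had an unadjusted p under 0.05. The median log2 fold change was -0.02, positive for 8 and negative for 8. By DESeq2 and by limma-voom, 0 genes of these 3 lists passed. Of the E2F, pocket protein and DREAM genes, E2f5 had the smallest p (edgeR adjusted p = 0.761). It had 37.9, 43.75 and 9.06 CPM with the high-fat diet and 14.7, 14.5 and 16.3 CPM with chow, with overlap. E2f4, the repressor of the DREAM complex, had 25.0, 31.8 and 17.3 CPM with the high-fat diet and 10.9, 24.0 and 4.48 CPM with chow, with overlap. E2f6 had 30.8, 38.9 and 19.0 CPM with the high-fat diet and 55.1, 56.3 and 21.9 CPM with chow, with overlap (log2 fold change -0.59, SE 0.43, edgeR adjusted p = 0.890). Rb1, the retinoblastoma protein that restrains E2F, had 57.6, 77.8 and 59.3 CPM with the high-fat diet and 50.0, 49.7 and 52.8 CPM with chow. It did not overlap (log2 fold change 0.35, SE 0.27, edgeR adjusted p = 0.906). The diets did not overlap in 1 gene of this list that was higher, Rb1, and 1 that was lower, against 15.3% of all genes tested.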

How the data were processed

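Total RNA of sorted satellite cells, with integrity numbers of 8.5 to 9.4, was depleted of ribosomal RNA and sequenced as 75-bp single reads, per the labels. The deposited values are counts, unnormalised read numbers that the authors gave for each Entrez gene ID, in 1 table per library. Bowtie2 is named in the file headers, and featureCounts, GRCm38 and mm10 in the submitters' processing notes; the sources used here give no versions, strand setting or treatment of reads that map to several places. Of 27179 IDs, 25275 matched a RefSeq GRCm38.p6 symbol, including all 58 members. Exons of 14 members overlap another gene (over 20% of positions in Gins2, Fen1, Ube2c and Kif20a), and reads of such pairs cannot be told apart; Pcna, Tyms, Ccnb1 and Ccnb2 have named pseudogenes.

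Counts were tested in R 4.3.3 with edgeR 4.0.16 (filterByExpr with a minimum count of 10, TMM scaling, quasi-likelihood test, two-sided, diet as the only factor) and adjusted by Benjamini-Hochberg over 13202 genes; a gene was called at an adjusted p under 0.05. Standard errors are the log2 fold change over the square root of F. CPM are TMM-normalised, and RPKM use the summed length of merged exons. Libraries agreed within sampling noise in 0 of 15 comparisons. Same-numbered libraries of the diets deviated together by correlations of -0.026 to 0.035, so numbers were not used as pairs. Alternatives were other scalings and filters, DESeq2 1.42.0, limma-voom (limma 3.58.1), the replicate block, each library left out, and the 2 libraries that stood apart left out.

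The members and lists were chosen with earlier results of these data known. In each role the 3 most abundant members, Mki67, Top2a, Pcna, Mcm2 and members with an unadjusted p under 0.05 were named by rule. Genes of the further pathway lists were taken from the 4 of smallest p in each list, and not all of these are named. Other members were named after their values were seen.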

Additional observations from a re-analysis of the deposited data

How the results depend on the processing

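No replication or mitosis gene was called under any of the 14 alternatives, while the count over all genes, 34 (12 higher, 22 lower), was 163 with no filter, 198 by DESeq2, 99 by limma-voom, 45 with the replicate block, 33 and 35 with other scalings, and 1 without both libraries that stood apart. Leaving out single libraries gave 9 to 44, with 18 without high-fat diet library 1, 9 without high-fat diet library 2, 19 without chow library 1 and 10 each without chow libraries 2 and 3. The median log2 fold change of the replication genes, 0.09, lay between -0.21 and 0.12 when single libraries were left out, and that of the mitosis genes, -0.47, between -0.54 and 0.17; the cause was not tested. Of the members named by rule, 30 were tested. In 15 of them the log2 fold change kept its sign under all alternatives that gave a value, and 0 of the 30 passed in any. Those 15 were 7 higher (Mki67, Rrm1, Rrm2 and Birc5 among them) and 8 lower (Mcm4, Slbp, Tpx2 and Ccna2 among them). Mcm5 and the other members named after their values were seen are not in this count. The 24 summed levels recomputed under other scalings moved by less than the spread between replicates. With 2 high-fat diet libraries correlating best with their own number, the numbers gave no more than a hint of pairing. For 6 mitosis genes no library exceeded 10 counts, and whether depth or a low transcript level lay behind this was not tested.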

Other observations

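Genes that act before DNA replication held the smallest p-values of the pathway lists. Of 15 cyclins, kinases, inhibitors and Myc genes of the G1 phase, 14 were tested and 0 passed edgeR's adjusted threshold. At an unadjusted p under 0.05, 1 was higher and 2 were lower with the high-fat diet (7.65% of all genes tested passed this level), and the 3 are given here because they have the smallest p. Mycn, a Myc family transcription factor, had 6.31, 2.56 and 2.64 CPM with the high-fat diet, against 11.5 to 36.4 CPM with chow (fitted log2 fold change -2.68, SE 0.71, edgeR adjusted p = 0.207); it was the 1 gene of the list that passed by DESeq2 (adjusted p = 0.0126), and 0 passed by limma-voom. Cdkn1a, the p21 inhibitor of cyclin-dependent kinases, had 58.8, 81.9 and 80.0 CPM with the high-fat diet and 102.6, 153.9 and 139.1 CPM with chow (fitted log2 fold change -0.84, SE 0.24, edgeR adjusted p = 0.279). Ccnd1, cyclin D1, had 182, 105 and 104.4 CPM with the high-fat diet and 72.5, 84.2 and 42.3 CPM with chow (fitted log2 fold change 0.98, SE 0.30, edgeR adjusted p = 0.322). The diets did not overlap in 1 gene of the list that was higher and 4 that were lower, these 3 and Myc among them, against 15.3% of all genes tested.

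Of the replication-dependent histones, whose poly(A)-lacking mRNAs a ribosomal depletion retains, 54 of 62 were tested and 0 passed by edgeR, DESeq2 or limma-voom. At an unadjusted edgeR p under 0.05 there was 1 of the 54, against 7.65% of all genes tested. Log2 fold changes were positive for 27 and negative for 27. H2bc4 had 8.78, 15.5 and 20.4 CPM with the high-fat diet and 3.01, 4.84 and 6.37 CPM with chow, without overlap (log2 fold change 1.65, SE 0.77, edgeR adjusted p = 0.652). H4c14 had 1.37, 3.20 and 11.5 CPM with the high-fat diet and 22.2, 13.7 and 17.8 CPM with chow, also without overlap (log2 fold change -1.74, SE 0.82, edgeR adjusted p = 0.654). Of the 54 tested, the diets did not overlap in 1 histone gene that was higher and 3 that were lower. Over all genes tested the share was 15.3% (7.42% higher and 7.87% lower). Since these histone genes are near-identical copies, their counts are uncertain. Of 13 cohesin and topoisomerase genes that are not tied to 1 phase, all 13 were tested and 0 passed by edgeR, DESeq2 or limma-voom. At an unadjusted edgeR p under 0.05 there were 0, and the median log2 fold change was 0.00. The diets did not overlap in 3 of the 13 that were higher and 1 that was lower, against 15.3% of all genes tested.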
